A study of Mus musculus with 8 samples.

Results

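Shh, Wnt7b, Tgfb3 and Vegfa encode secreted signals, and the distribution of H3K27me3 at these 4 genes was read from the peak lists of 5 mouse cell libraries. The members were given as 4 windows of the mm9 genome, each set to span a gene with some sequence on either side: chr5:28778000-28799000 for Shh (21001 bp), chr15:85360000-85420000 for Wnt7b (60001 bp), chr12:87390000-87428000 for Tgfb3 (38001 bp) and chr17:46148000-46175000 for Vegfa (27001 bp). An overlap of 1 bp with a peak sufficed for a window to be called marked in the respective list. Of the 208616 peaks in the 5 lists, 12 fell in the 4 windows. The exons and start sites of the genes were not placed within the windows, since gene annotation of mm9 was not used here, and expression was not analysed here.

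AstroEGFR 1 and AstroEGFR 3 (n = 2) were C57BL/6 astrocytes from the cerebral cortex at postnatal day 5, knocked out for p16/p19 (the Ink4a/Arf locus) and infected with a retrovirus for human EGFRvIII, a constitutively active form of the epidermal growth factor receptor. PT1, PT3 and PT4 (n = 3) were glioma propagating cells taken from gliomas that grew after such cells had been transplanted into CD1 Nude mice, so that both groups carried the knockout and the oncogene. By the study's methods the astrocytes grew in medium with serum and the PT cells in glioma-initiating cell medium with B27, N2 and growth factors on laminin, so that the passage through a tumour and the culture medium cannot be told apart in any comparison of the stages. All cultures were below passage 10. The study worked with independent astrocyte batches and the tumours grown from them, but the labels do not tie a PT to an astrocyte library, so PT1 and PT3 were not taken as the offspring of AstroEGFR 1 and 3. The identity of the cells could not be checked on marker genes, because the files hold peaks and no expression.

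H3K27me3 is the trimethyl mark that Polycomb repressive complex 2 places on histone H3, through its catalytic subunits EZH2 or EZH1, and it is known for holding developmental genes silent, often from CpG-rich start sites. Shh, the sonic hedgehog ligand, acts through the Patched and Smoothened receptors on the Gli transcription factors and patterns the ventral neural tube. Wnt7b is a Wnt ligand that signals through Frizzled receptors and is known for its part in the growth of blood vessels into the brain. Tgfb3 is a ligand of the TGF-β receptors, which act through SMAD proteins, and Vegfa is the main growth factor for blood vessels and is induced by low oxygen.

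The lists differed widely in size, with 34021 peaks (50.1 Mb) in AstroEGFR 1, 3722 peaks (3.48 Mb) in AstroEGFR 3 and 40090 to 66279 peaks (39.2 to 87.9 Mb) in the 3 PT. AstroEGFR 3 and PT3 held 0 peaks on unplaced sequences, against 179 to 236 in the other 3 lists, and results are therefore also given within these 2 sets of lists. The number of reads is unknown, so a window without a peak is one in which no region passed the threshold of that list. A mark in fewer cells and a weaker mark in all cells cannot be told apart in such lists.

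The 4 genes differed in their marking. Shh held peaks in PT1, PT3 and PT4 but in no AstroEGFR library, Wnt7b held peaks in AstroEGFR 3 and PT3 alone, and the windows of Tgfb3 and Vegfa held 0 peaks in all 5 libraries. The map of the 4 windows and their flanks shows that the surroundings differed too: in the PT libraries the 100 kb on either side of Shh held few or no peaks, and those of Vegfa held many on both sides, whereas AstroEGFR 1 was marked on the upper side of Vegfa alone and AstroEGFR 3 hardly on either.

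**Figure D1:**
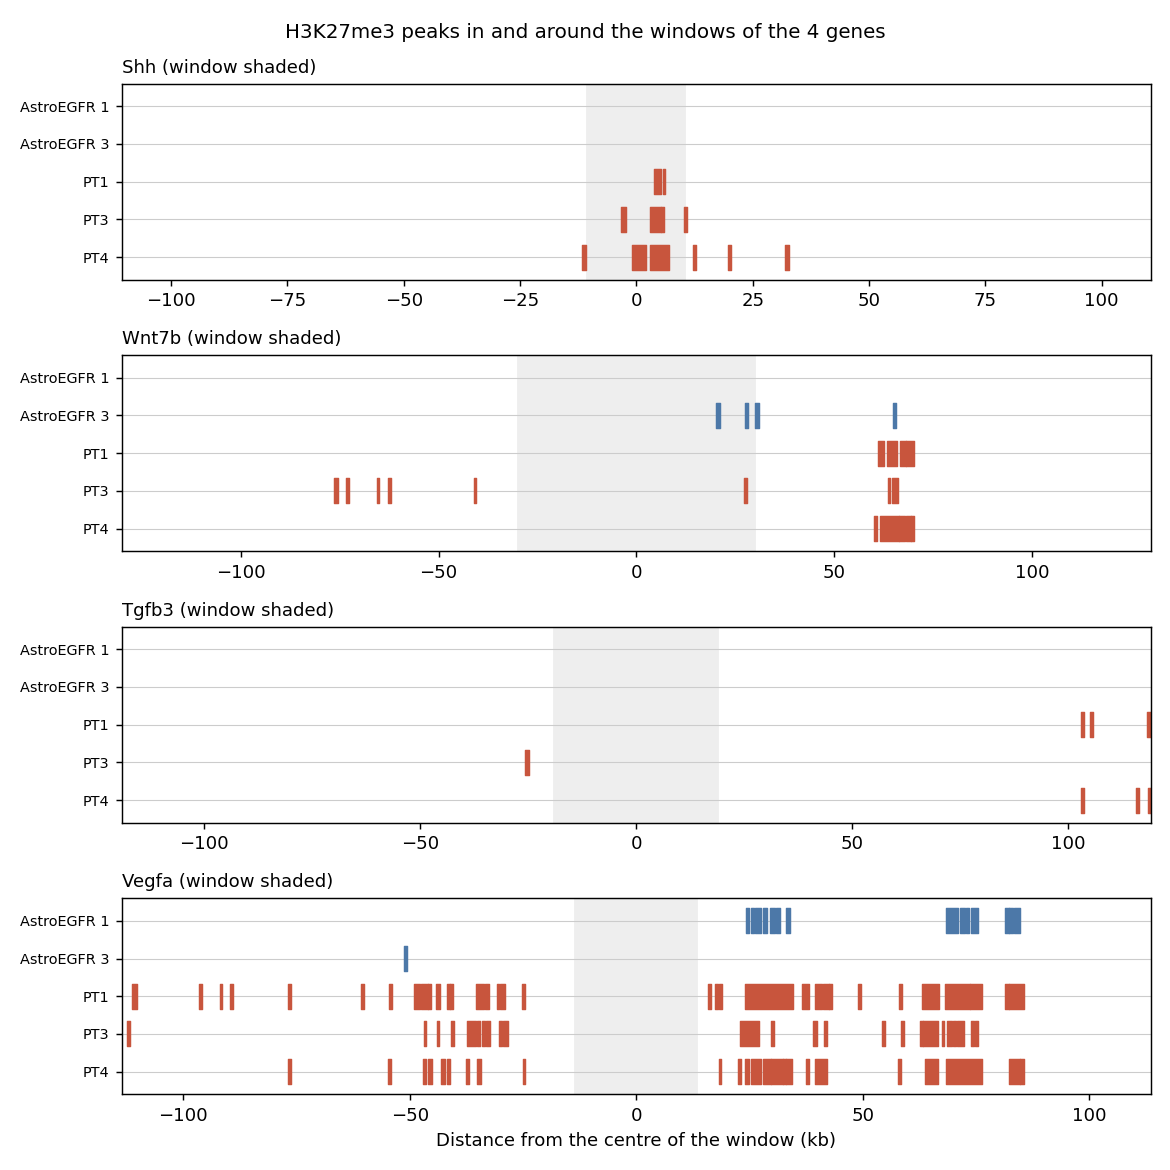
Each bar is a H3K27me3 peak, placed by its distance in kb from the centre of the window (x axis) in the library named at the left (AstroEGFR in blue, PT in red), and each row reaches 100 kb beyond the shaded window. In the Shh window the 3 PT libraries hold 8 peaks and the AstroEGFR libraries 0, while the Vegfa window is empty in all 5 libraries and has peaks on its upper side in AstroEGFR 1 and all 3 PT.

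At Shh, the covered length of the window was 0 bp in AstroEGFR 1, 0 bp in AstroEGFR 3, 2142 bp in PT1, 4241 bp in PT3 and 6841 bp in PT4. The PT and AstroEGFR values did not overlap. In percent of the window, 10.2% was covered in PT1, 20.2% in PT3 and 32.6% in PT4, so the 3 PT differed widely among themselves. PT averaged 4408 ± 2354 bp (SD, n = 3) against 0 ± 0 bp (SD, n = 2), and 2 of the 10 ways to assign the 5 libraries to the groups gave a difference as large (exact permutation test, two-sided, p = 0.2). The smallest p that 2 against 3 libraries allow is 0.1, so this test cannot reach a conventional threshold here.

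Marking in these 3 libraries was read against all genome tiles of the same length. Of 125433 tiles, 16.7% held a peak in PT1, 13.9% in PT3 and 17.4% in PT4, against 10.8% in AstroEGFR 1 and 2.18% in AstroEGFR 3. Tiles marked in each PT but in no AstroEGFR list made up 2.14%. Shh thus belonged to a small share of the genome by its pattern, though one that still holds 2683 tiles. The tiles were taken with or without genes in them, whereas the window was set to span a gene. No background of gene windows was used. Among the tiles with a peak, 47.0% were covered less than the Shh window in PT1, 85.9% in PT3 and 81.9% in PT4, which puts Shh near the middle of the marked tiles in PT1 and in the upper part of them in PT3 and PT4.

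**Figure D2:**
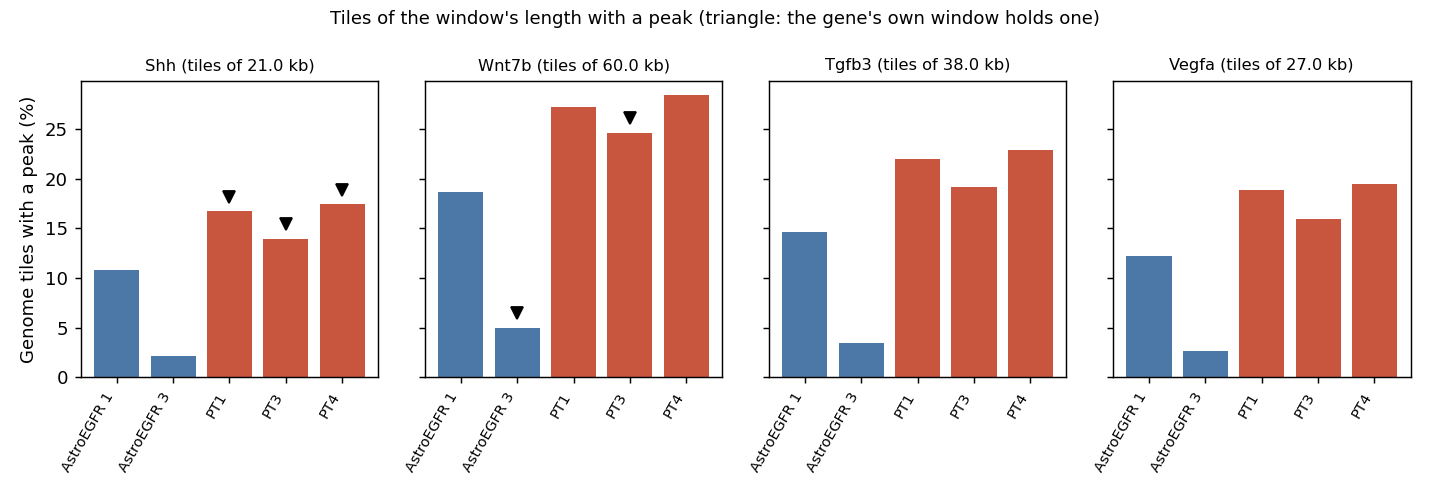
Bars give the percent of genome tiles (y axis) of each window's length that hold a peak in each library (x axis), with AstroEGFR in blue and PT in red, and a black triangle marks a library with a peak in the gene's own window. Triangles stand over PT1, PT3 and PT4 for Shh, over AstroEGFR 3 and PT3 for Wnt7b, and over no library for Tgfb3 and Vegfa.

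The strongest Shh peak of each PT library lay at the same place. It spanned chr5:28792278-28793824 in PT1 (score 395.83), chr5:28791368-28793862 in PT3 (score 654.76) and chr5:28791451-28795433 in PT4 (score 2050.47). The score is a value of the peak caller that ranks peaks within a list and is not comparable in size between lists. Within its own list, the peak stood above 80.8% of peaks in PT1, 96.0% in PT3 and 97.2% in PT4, at ranks 12412, 1617 and 1866. All 1547 bp of the PT1 peak lay inside the peaks of PT3 and PT4. A second stretch of 366 bp, chr5:28794130-28794495, was also covered in all 3, by weak separate peaks in PT1 (score 84.11) and PT3 (score 89.55) and by the same broad peak in PT4. The 3 libraries together thus shared 1913 bp, or 23.7% of the 8063 bp covered in any of them.

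Outside this common site the PT libraries differed. PT4 alone held a broad peak of 2858 bp at chr5:28787624-28790481 (score 872.99, above 92.6% of its list). PT3 alone held peaks of 940 bp at chr5:28785278-28786217 (score 158.55) and of 653 bp at chr5:28798802-28799454 (score 97.55), the latter with 199 bp inside the window. Bases covered in PT4 alone made up 44.6% of all those covered at Shh, and bases in PT3 alone 15.2%. PT1, whose list covered the most of the genome, had no base of its own at Shh.

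**Figure D3:**
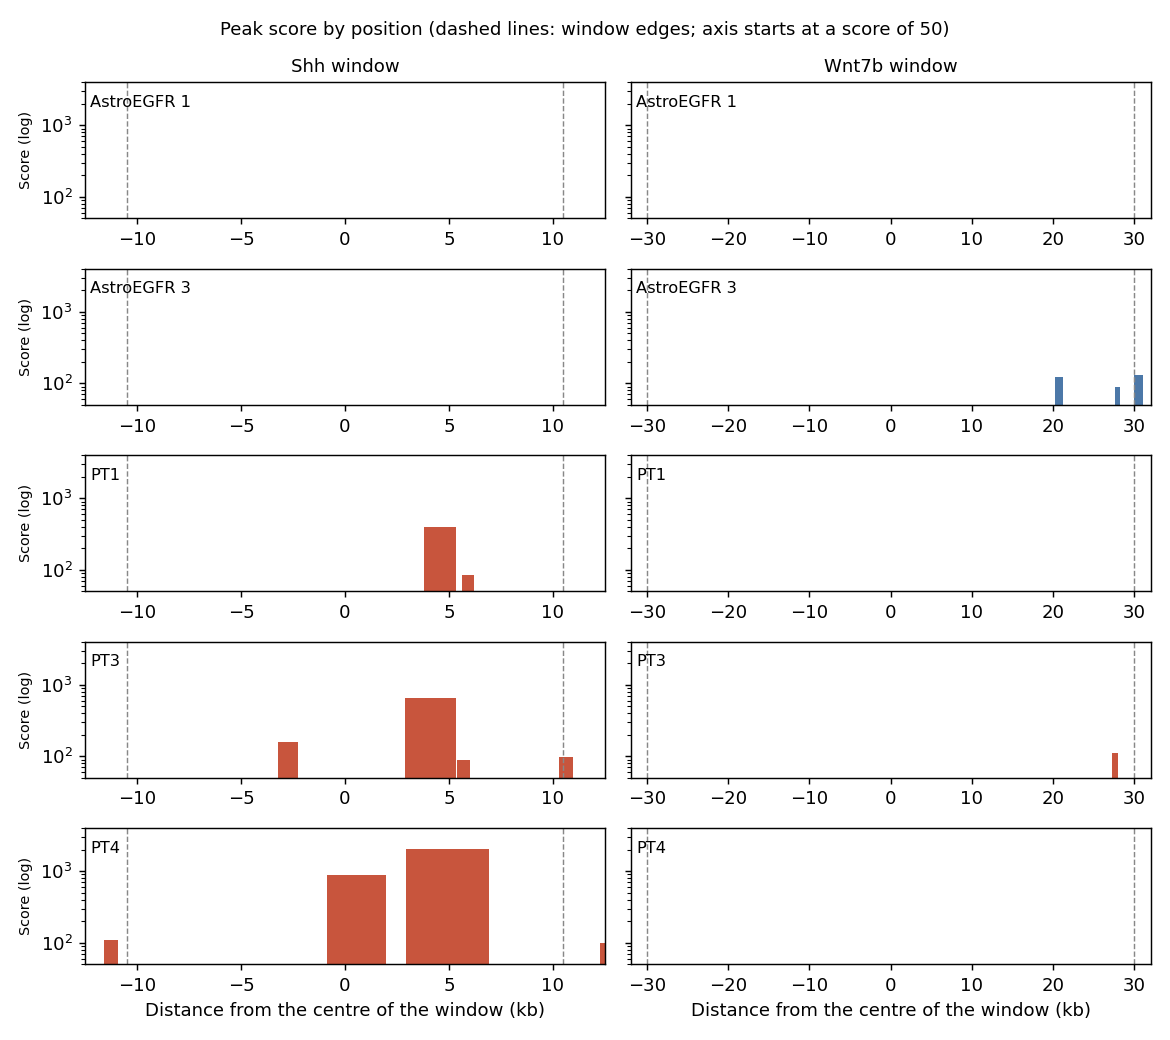
Bars give the score of each peak (y axis, logarithmic, starting at 50) by its distance in kb from the centre of the window (x axis) for Shh (left) and Wnt7b (right), with one panel per library and dashed lines at the window edges. At Shh the highest bar of PT1, PT3 and PT4 stands at the same position, with scores of 395.83, 654.76 and 2050.47. The Wnt7b bars of AstroEGFR 3 and PT3 do not exceed 131.55. Bar heights are not comparable in size between libraries.

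With the overlapping peaks of all lists merged, the common Shh site formed a region of 4066 bp. Of 99646 merged regions, it was among the 3745 that all 3 PT and neither AstroEGFR library marked. It was wider than 89.8% of these 3745 (median 1852 bp). The width of a merged region can rest on 1 library: at Shh the strongest peak was 3983 bp in PT4, against 1547 bp in PT1 and 2495 bp in PT3. By the lowest of its 3 within-list percentiles, 80.8, the Shh region ranked 233 among the 3745. The nearest AstroEGFR peak was 155 kb away in AstroEGFR 1 and 255 kb away in AstroEGFR 3, and 7.40% of the 3745 regions lay as far or farther from any AstroEGFR peak. In AstroEGFR 1 the stretch without a peak around the Shh window measured 1085 kb, and in AstroEGFR 3 1273 kb. Of all stretches without a peak, 1.34% in AstroEGFR 1 and 11.5% in AstroEGFR 3 were as long. Stretches as long or longer nevertheless held 51.6% of the peak-free bases of AstroEGFR 1 and 79.6% of those of AstroEGFR 3. A base without a peak thus often lay in such a stretch.

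In the tumour cells, too, little was marked around Shh, as in most of the genome: 34.4% of 100-kb tiles held any peak in PT1, 31.8% in PT3 and 35.8% in PT4. Beyond the window, the next peak of PT1 was 139 kb below and 253 kb above it, and that of PT3, apart from the peak across the upper edge, was 198 kb below and 212 kb above. PT4 held 4 further weak peaks within 100 kb, of scores up to 126.67, the nearest 0.423 kb below the window. Within 100 kb of Shh, PT1 thus held no peak outside the gene's own window, and PT3 none but the peak across its edge.

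Within sets of lists the Shh values kept their direction. Among the lists with peaks on unplaced sequences, PT1 and PT4 exceeded AstroEGFR 1 by 4492 bp on average, and among those without, PT3 exceeded AstroEGFR 3 by 4241 bp; each set held 1 AstroEGFR library, so there is no replicate check. When the longer lists were limited, in order of score, to the covered length of AstroEGFR 1, which left 15967 peaks in PT1 and 19206 in PT4, all 3 PT still held a peak at Shh. Limited to the 3722 strongest peaks of each list, PT3 and PT4 still held one and PT1 did not. With that limit the difference of the group means was 2159 bp (exact permutation test, two-sided, p = 0.4), against 4408 bp with the full lists. Beyond this limit, the part of list size in the difference from AstroEGFR 3 was not tested.

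At Wnt7b, the covered length was 0 bp in AstroEGFR 1, 1620 bp in AstroEGFR 3, 0 bp in PT1, 770 bp in PT3 and 0 bp in PT4. The groups overlapped. PT averaged 257 ± 445 bp (SD, n = 3) and AstroEGFR 810 ± 1146 bp (SD, n = 2), and 7 of the 10 assignments reached the difference of -553 bp (exact permutation test, two-sided, p = 0.7). The sign of the difference rested on AstroEGFR 3, without which it was 257 bp. Both libraries with a peak were those without peaks on unplaced sequences, and the other 3 lists, which cover the most of the genome, held none. Both also carry the replicate number 3, so this feature of the lists and the number cannot be told apart. Whether either has a part in the Wnt7b peaks was not tested.

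Of 43896 tiles of 60001 bp, 4.94% held a peak in AstroEGFR 3 and 24.6% in PT3, against 18.7% in AstroEGFR 1, 27.2% in PT1 and 28.4% in PT4, and 0.237% held one in AstroEGFR 3 and PT3 and in no other list. The 3 peaks of AstroEGFR 3 lay at chr15:85410236-85411194 (score 123.74), chr15:85417576-85418226 (score 90.39) and chr15:85419991-85421043 (score 131.55), the last with 10 bp inside the window. They stood above 71.6%, 50.2% and 74.9% of the peaks of that short list. The single peak of PT3, chr15:85417251-85418020 (score 110.2, above 50.7% of its list), overlapped the second of these over 445 bp. All 4 peaks lay at the upper end of the window, from position 85410236 onwards.

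Above the Wnt7b window, 4 of the 5 libraries shared a further site. Here PT4 held a peak of 4709 bp with a score of 1497.42 (above 96.0% of its list), PT1 one of 2617 bp with 793.77 (above 90.5%) and PT3 one of 1501 bp with 314.35 (above 87.3%). In PT3 this was above the score of the peak inside the window. AstroEGFR 3 also held a peak there, chr15:85454783-85455701, 34.8 kb from the window, with a score of 102.82 (above 60.45% of its list) that was below those of 2 of its 3 peaks in the window, and its 919 bp were covered in PT1, PT3 and PT4 too. The nearest peak of AstroEGFR 1 above the window was 138 kb away. The gene at this site was not identified.

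The Tgfb3 window held 0 peaks in AstroEGFR 1, AstroEGFR 3, PT1, PT3 and PT4. Windows without a peak are common. Of 69315 tiles of 38001 bp, 14.6% held a peak in AstroEGFR 1, 3.48% in AstroEGFR 3, 22.0% in PT1, 19.2% in PT3 and 22.9% in PT4, and 68.2% held none in any of the 5. On chromosome 12 the share of marked tiles was above that of the genome in AstroEGFR 3, at 8.79%, and below it in the other 4 lists, for example at 15.9% in PT3 and 19.4% in PT4. The stretch without a peak around the window measured 421 kb in AstroEGFR 1, 441 kb in AstroEGFR 3, 382 kb in PT1, 156 kb in PT3 and 378 kb in PT4. Of all stretches without a peak, between 1.86% (PT4) and 22.8% (AstroEGFR 3) were as long. Stretches as long or longer nevertheless held 59.8% to 92.0% of the peak-free bases of the 5 lists. The nearest peak of any list was one of PT3, 5.84 kb below the window, of 829 bp with a score of 123.49 (above 57.7% of its list), and above the window the nearest were those of PT1 and PT4, both at 84.0 kb. No difference between the stages in H3K27me3 was detectable at Tgfb3 in these lists.

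The Vegfa window likewise held 0 peaks in AstroEGFR 1, AstroEGFR 3, PT1, PT3 and PT4. Of 97558 tiles of 27001 bp, 12.2% held a peak in AstroEGFR 1, 2.67% in AstroEGFR 3, 18.9% in PT1, 15.9% in PT3 and 19.5% in PT4, and 72.3% held none in any list, so the empty window alone does not set Vegfa apart. Its neighbourhood in the PT libraries differed from that of Tgfb3. The stretch without a peak was only 40.2 kb in PT1, 51.3 kb in PT3 and 42.7 kb in PT4, against 325 kb in AstroEGFR 1 and 1425 kb in AstroEGFR 3. These lengths also depend on the size of each list. Stretches as long or longer held 75.4% of the peak-free bases in AstroEGFR 1 and 77.6% in AstroEGFR 3. In PT1, PT3 and PT4 they held 90.6%, 90.3% and 89.7%.

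The 100 kb above Vegfa was covered to 15.8% in AstroEGFR 1, 0% in AstroEGFR 3, 34.7% in PT1, 16.8% in PT3 and 28.5% in PT4, whereas the lists cover 1.89%, 0.129%, 3.33%, 1.49% and 3.20% of the genome span. Only 3.38%, 1.96%, 1.85% and 2.69% of 26335 tiles of 100 kb were covered as much in AstroEGFR 1, PT1, PT3 and PT4. The strongest peaks on this side reached a score of 3100 over 10606 bp in PT1 and 3100 over 7912 bp in PT4, and 7302 bp were shared by AstroEGFR 1 and all 3 PT. In AstroEGFR 1 the nearest of these peaks was 10.6 kb above the window, compared with 2.21 kb in PT1, 9.41 kb in PT3 and 4.70 kb in PT4.

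The 100 kb below Vegfa was covered to 15.6% in PT1, 7.97% in PT3 and 6.19% in PT4, but to 0% in AstroEGFR 1 and 0.802% in AstroEGFR 3, and 24.7% of 100-kb tiles held any peak in AstroEGFR 1. Tiles covered as much made up 4.44% in AstroEGFR 3, 6.90% in PT1, 5.22% in PT3 and 14.0% in PT4. In AstroEGFR 3 only 7.33% of 100-kb tiles held any peak, so its share could not exceed 7.33%. It rests on 1 peak of 802 bp with a score of 78.9. These shares therefore cannot tell whether the stages differed on this side. The longest stretch common to all 3 PT was 606 bp, chr17:46126294-46126899. The nearest peak of AstroEGFR 1 on this side was 287 kb away, and those of the 3 PT between 10979 and 14919 bp. These flanks were chosen for description after the lists had been seen, and the genes that hold these peaks were not identified. In RefSeq (GRCm38.p6), used for the order of genes only, the protein-coding genes next to Vegfa on the upper side are Mrps18a and Rsph9.

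**Figure D4:**
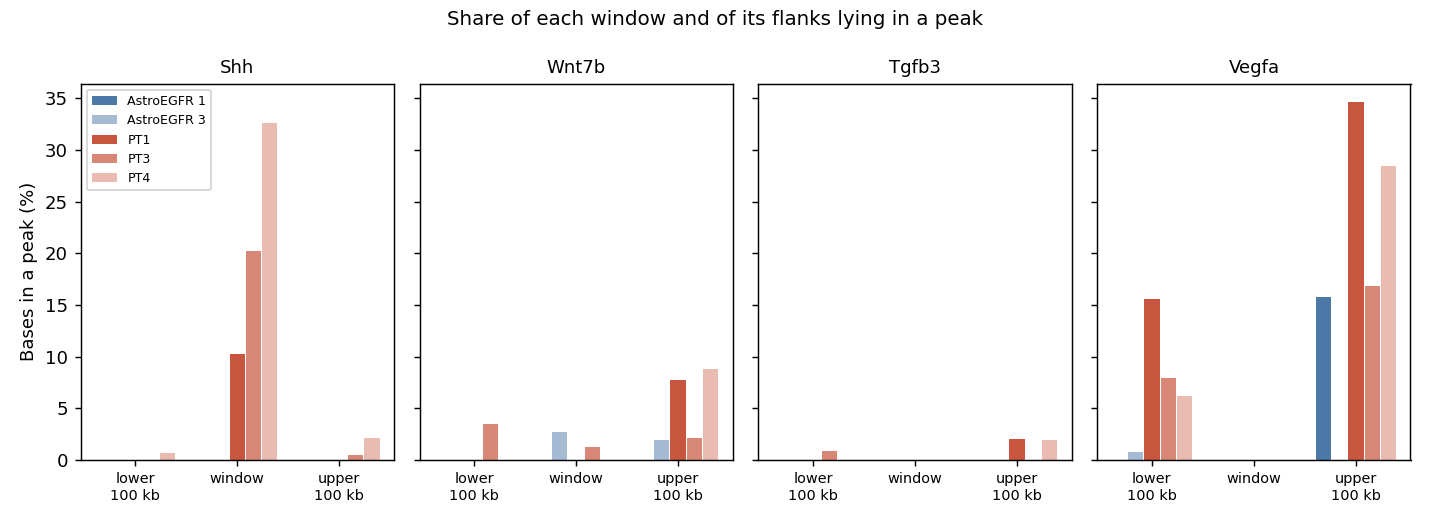
Bars give the percent of bases in a peak (y axis) in the 100 kb below, inside and in the 100 kb above each window (x axis), with one bar per library (AstroEGFR in blue shades, PT in red shades) and no error bars, since each bar is 1 library. Shh is covered inside the window (10.2% to 32.6% in PT) and hardly around it, Vegfa around the window (up to 34.7%) and not inside it.

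The sequence ahead of the Vegfa start site is shown because it lies, if the window holds the gene as set, in a peak-free gap between the marked flanks of the PT libraries. The table of RefSeq start-site sequences used here matched 1 of the 4 members, Vegfa. The 250 bases before the outer start of Vegfa (RefSeq, GRCm38.p6, chr17:46032378-46032627, minus strand, not comparable with the mm9 positions above) read as follows from 5′ to 3′, with CG dinucleotides in capitals:
Vegfa: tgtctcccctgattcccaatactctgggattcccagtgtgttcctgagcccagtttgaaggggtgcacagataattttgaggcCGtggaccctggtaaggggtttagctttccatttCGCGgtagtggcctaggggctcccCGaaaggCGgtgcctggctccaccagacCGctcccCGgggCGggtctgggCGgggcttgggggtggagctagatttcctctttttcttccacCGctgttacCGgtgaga
This stretch held 11 CG dinucleotides against a median of 6 over the same 250 bases of 32848 start sites, 35.6% of which had as many. Its G and C content was 59.2% and its ratio of observed to expected CG was 0.506. Start sites with a ratio as high made up 40.2%, so that by this measure the outer Vegfa start was not unusual. The 250 bases before a second Vegfa start, not shown, held 7 CG dinucleotides at a ratio of 0.365. As many CG were held by 46.3% of start sites, and 50.8% had a ratio as high.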

How the data were processed

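H3K27me3 ChIP-seq peak lists of 2 AstroEGFR and 3 PT libraries were used; 3 input libraries (2 AstroEGFR, 1 PT) were not analysed here. The submitters' processing notes name Bowtie 0.12.9, MACS 1.4.1 and the build mm9. Peak calling by the authors was done per library, and the deposited score of each peak is the value written by MACS, of which the lists do not state the definition; which input was used is not given in the sources used here. Library depth is unknown. Positions are 1-based.

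Peaks were intersected with the 4 windows in Python 3.11.15 with pandas 2.3.3 and numpy 2.4.6, and figures were drawn with matplotlib 3.10.9. Covered length is the number of window bases in a peak. Tiles of each window's length ran from the first base of chromosomes 1 to 19 and X to the last peak in any list, and the Wilson 95% intervals (scipy 1.17.1) of their shares were at most 0.42 percentage points to either side, covering counting error only. The 10 assignments of 5 libraries to groups of 2 and 3 gave the two-sided p of an exact permutation test on the difference of means. The intersection was first tried on simulated peaks with known answers. The members, windows and tests were chosen with earlier results of these data known, and all 4 members are named. The planned counts for other hedgehog, Wnt, TGF-β and VEGF genes and the search for genes of like pattern were not run, since they need annotation of mm9.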

Additional observations from a re-analysis of the deposited data

How the results depend on the processing

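The difference in covered length at Shh kept its direction under each alternative that was run, between 2159 bp with the 3722 strongest peaks per list and 5203 bp with the window widened by 10 kb on each side, and from 3192 to 5541 bp on leaving out single libraries. At Wnt7b it ranged from -1363 to 257 bp when each library was left out, and it reversed to 256.7 bp without AstroEGFR 3. It was -228 bp with a score of at least 100 and -1075 bp with the widened window. In AstroEGFR 1, PT1 and PT4 alone, the lists with unplaced sequences, it was 0 bp, an alternative chosen after seeing the data. The number of libraries with a Wnt7b peak fell from 2 to 1 with the window narrowed by 5 kb on each side, and to 1 with the strongest peaks only. Widening the windows by 10 kb gave 1 library with a peak and a difference of 276.3 bp at Tgfb3, and 3 libraries (all PT) and 1235.7 bp at Vegfa (exact permutation test, p = 0.2). The nearest Vegfa peak of AstroEGFR 1, at 10603 bp, fell just outside this widened window. These values were otherwise 0, also when each library was left out. For the covered lengths, a score of at least 100, the upper 50% of each list, gaps of up to 1000 bp joined and scaling by the covered length of the list changed no direction. For the number of libraries, a score of at least 100 and a minimum of 500 bp changed no count. Tiles shifted by 0.5 of their length changed no share of marked tiles by over 1.5 times. The changes were far smaller than this bound, for example from 15.9% to 16.1% for tiles of the Vegfa window length in PT3.

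Libraries 1 and 3 share numbers between the stages. With the replicate block the difference was 3192 bp at Shh, -425 bp at Wnt7b and 0 bp at Tgfb3 and Vegfa over these 2 pairs. Deviations from the group means over tiles of 21.0 kb correlated at 0.496 (number 1) and 0.593 (number 3). With 2 AstroEGFR libraries their deviations are mirror images, so AstroEGFR 3 with PT1 gave -0.496 and AstroEGFR 1 with PT3 -0.593. The values of the 2 pairs are therefore not independent. AstroEGFR 1 also correlated with PT4 at 0.434, and the numbers coincide with the 2 sets of lists, so the pairing was not established. The counts for genes of related pathways were not run.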
